A study of Mus musculus with 6 samples.

Results

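The genes described here encode the phagocyte NADPH oxidase, NOX2, and the Rac GTPases that switch it on. They are Cybb, Cyba, Ncf1, Ncf4, Rac1 and Rac2. They were picked by name as parts of the enzyme and its GTPases, by a rule that uses no measured value. Earlier results of these data were known when they were chosen. All 6 were found among the 55335 gene identifiers of the expression table, and all 6 passed a filter that kept genes averaging 1 FPKM or more (mapped fragments scaled to 1 kilobase of transcript and 1000000 fragments).

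The libraries were bulk RNA-seq of mouse primary microglia that had shared a culture with neutrophils for 24 h, and the study asked how the neutrophils' Cd177 genotype affects the microglia. The microglia had intact Cd177 (WT) in both arms, came from brains of newborn C57BL/6 mice, and were shaken loose from mixed glial flasks on day 14. Neutrophils were obtained by magnetic sorting from injured spinal cord lesions at 3 days post injury (dpi), from either Cd177 WT or Cd177 KO mice, and the microglia were recovered as Ly6G-negative cells by flow sorting. Each arm had 3 libraries, called WT and KO below after the neutrophils. Both arms met neutrophils, so every value compares the KO arm with the WT arm and not with microglia cultured alone. Nothing in the labels says whether the 3 libraries per arm stem from different cultures or animals, so p-values measure only the spread between these libraries, which may be technical.

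NOX2 is a membrane enzyme that passes electrons from NADPH in the cytosol to oxygen outside or inside the phagosome and so makes superoxide. Its catalytic core, gp91phox, is stable only when paired with p22phox, and it is silent until cytosolic subunits, among them p47phox and p40phox, and a GTP-bound Rac protein join it. Microglia use it for the respiratory burst and for redox signalling, and its loss in humans causes chronic granulomatous disease.

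The 6 transcripts did not move as a block. With KO neutrophils Cybb fell 3.52-fold, Rac2 2.03-fold and Ncf4 1.73-fold. Ncf1 fell by 12.6%, Cyba was 7.27% lower, and Rac1 rose 1.20-fold. In the fit over all 11395 genes tested, all 6 members had an adjusted p under 0.05, 5 of them lower and 1 higher with KO neutrophils, but such calls were common: 43.3% of all genes tested were called, 18.8% lower and 24.5% higher. The WT and KO libraries of a gene did not overlap for 6 of 6 members, and for 55.8% of all genes tested. Cybb and Rac2 were called and at least 2 times higher in WT, a change that 2.71% of all genes tested showed. The median log2 change of the members was −0.48, against 0.02 over all genes tested. Of all calls, 56.57% were higher with KO neutrophils, and 45.08% were when each library was rescaled to a common sum (TPM scale). The direction of each member was the same on both scales.

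**Figure D1:**
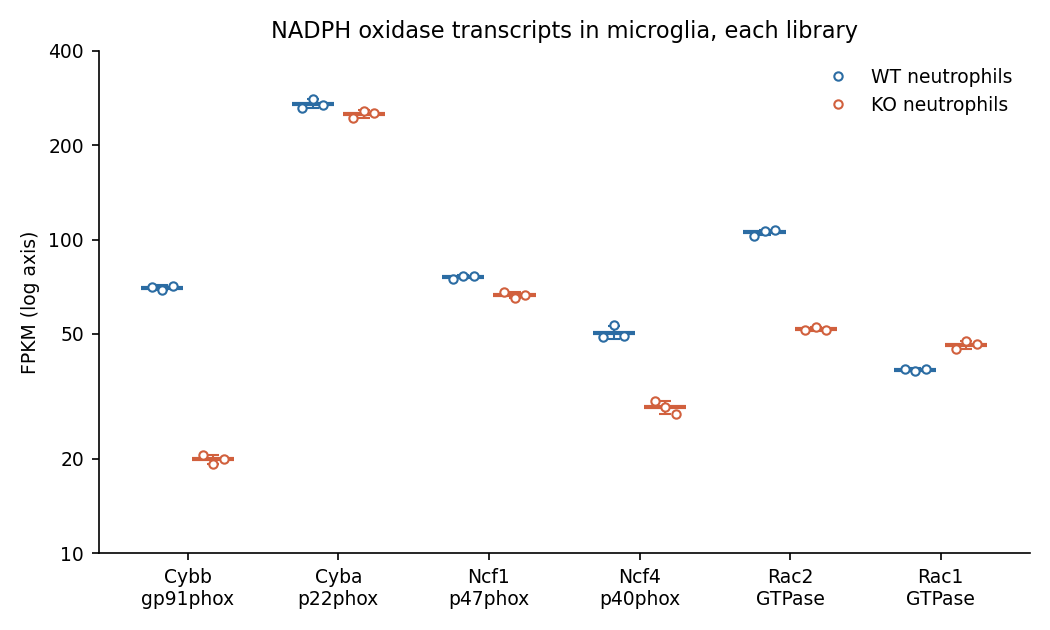
FPKM (log axis) of the 6 oxidase genes in each of the 3 WT and 3 KO libraries. Points are libraries, thick lines means and thin bars SD. Cybb sits between 68.8 and 71.2 in WT and between 19.3 and 20.6 in KO, while Cyba, Ncf1 and Rac1 stay close to their WT level.

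The membrane core is made of gp91phox and p22phox. Cybb, which encodes gp91phox, the subunit that carries the electrons, lies on chromosome X from 9435252 to 9487771 on the minus strand (GRCm38, GENCODE M21). It measured 70.8, 68.8 and 71.2 FPKM in the WT libraries and 20.6, 19.3 and 20.0 FPKM in the KO libraries. Every KO library was thus far below every WT library, and the spread within each arm was small. The means were 70.3 ± 1.28 and 19.95 ± 0.653 (SD, n = 3 each). On the log2(FPKM + 1) scale the change was −1.77 (standard error 0.0318, 95% confidence interval −1.84 to −1.69, limma adjusted p = 3.51e-07). Among the 11395 genes tested it ranked 74 from the most negative change. In mean level over all libraries Cybb stood at percentile 91.4 of the genes tested.

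Cyba encodes p22phox, the partner that stabilises gp91phox and docks p47phox. It lies on chromosome 8 from 122424776 to 122432930, minus strand, and was the most abundant of these transcripts in both arms. It measured 263, 281 and 269 FPKM in the WT libraries and 243, 256 and 254 FPKM in the KO libraries. The highest KO library lay just under the lowest WT library. The means were 271 ± 9.05 and 251 ± 6.94 (SD, n = 3 each), and the log2 change was −0.11 (standard error 0.0321, interval −0.19 to −0.03, limma adjusted p = 0.0356). This call was lost in 8 of 16 alternative fits, among them those without the second or the third WT library or without any one of the KO libraries, where the change lay between −0.12 and −0.08 with adjusted p-values of 0.0516 to 0.0942.

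Within each library the ratio of Cybb to Cyba does not depend on how libraries were scaled against each other. It was 0.269, 0.245 and 0.265 in the WT libraries against 0.0846, 0.0753 and 0.0786 in the KO libraries. The mean ratio went from 0.260 ± 0.0129 to 0.0795 ± 0.00475 (SD, n = 3 each), a log2 difference of −1.71 (exact two-sided permutation p = 0.1, adjusted p = 0.1 over 4 ratios). With 3 libraries against 3, 0.1 is the smallest p this test can give, so no single-gene or ratio test of this kind could pass 0.05.

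RefSeq promoter sequences (GRCm38.p6) were at hand for 3 of the 6 members. The 250 bases before the transcription start are shown for Cybb, the member that fell most, and for Ncf1 and Cyba, which moved far less in the same libraries. All lie on the minus strand, at chrX:9469325-9469574, chr5:134229626-134229875 and chr8:122432941-122433190, and are written 5′ to 3′ in the direction of transcription. Capitals mark matches on either strand to 5 short motifs.
Cybb: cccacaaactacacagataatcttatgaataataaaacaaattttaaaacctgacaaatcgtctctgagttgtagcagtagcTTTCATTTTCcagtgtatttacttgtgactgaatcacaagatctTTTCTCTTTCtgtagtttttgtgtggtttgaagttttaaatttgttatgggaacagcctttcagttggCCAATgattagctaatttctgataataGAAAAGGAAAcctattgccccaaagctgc
Ncf1: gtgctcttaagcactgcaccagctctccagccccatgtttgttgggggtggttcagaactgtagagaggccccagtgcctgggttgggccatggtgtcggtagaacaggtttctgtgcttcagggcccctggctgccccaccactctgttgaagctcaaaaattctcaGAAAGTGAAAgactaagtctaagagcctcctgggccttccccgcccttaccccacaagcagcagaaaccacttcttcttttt
Cyba: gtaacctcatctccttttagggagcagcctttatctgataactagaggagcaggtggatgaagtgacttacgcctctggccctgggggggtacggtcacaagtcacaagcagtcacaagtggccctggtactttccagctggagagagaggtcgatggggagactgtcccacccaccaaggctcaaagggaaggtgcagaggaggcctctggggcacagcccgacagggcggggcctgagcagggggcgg
The motifs were the CCAAT box, GAGGAA (a core bound by PU.1-type ETS factors), the interferon-response repeat (GAAA, any 2 bases, then GAAA again), a kappaB-type site (GGGA, any base, then TTTCC) and TATAAA. Over the 300 bases from 250 before to 50 after the start, Cybb held the interferon-response repeat at 3 places. They run from −168 to −159 and from −124 to −115 on the opposite strand, and from −29 to −20 on the gene's strand, counted from the start site. It also held CCAAT from −56 to −52, and GAGGAA from 10 to 15 on the opposite strand, beyond the bases printed. Ncf1 held the same repeat once, from −82 to −73, and Cyba held none of the 5. Of 32851 promoters in the same table, 3.44% held the interferon-response repeat, 37.4% CCAAT, 28.3% GAGGAA, 13.6% TATAAA and 0.411% the kappaB-type site. A match of letters says nothing about whether a factor was bound there. The GENCODE span of Cybb reaches beyond the RefSeq start used here, so transcripts with other starts exist in that annotation.

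The cytosolic members both fell, by different amounts. Ncf4 encodes p40phox, which binds the phagosomal lipid phosphatidylinositol 3-phosphate and helps keep the assembled enzyme active there. It lies on chromosome 15 from 78244801 to 78262580, plus strand. It measured 49.0, 53.4 and 49.1 FPKM in the WT libraries and 30.6, 29.2 and 27.8 FPKM in the KO libraries. The arms were well apart. The means were 50.5 ± 2.49 and 29.2 ± 1.38 (SD, n = 3 each), and the log2 change was −0.77 (standard error 0.0486, interval −0.89 to −0.65, limma adjusted p = 5.71e-05).

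Ncf1 encodes p47phox, the organiser that is phosphorylated on activation and carries the cytosolic complex to p22phox. It lies on chromosome 5 from 134220053 to 134229625, minus strand. It measured 75.1, 76.4 and 76.7 FPKM in the WT libraries and 68.0, 65.1 and 66.4 FPKM in the KO libraries. All KO libraries were below all WT libraries by a small step. The means were 76.0 ± 0.864 and 66.5 ± 1.46 (SD, n = 3 each), and the log2 change was −0.19 (standard error 0.0243, interval −0.25 to −0.13, limma adjusted p = 0.00125). Its exons share 408 bases with Gtf2ird2 on the opposite strand, which averaged 1.47 FPKM, and the strand setting of the counting is not given in the sources used here.

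Set against Cybb in the same library, both cytosolic members took a larger share with KO neutrophils. The ratio of Ncf1 to Cybb was 1.08 ± 0.0256 with WT neutrophils and 3.33 ± 0.0376 with KO neutrophils (SD, n = 3 each), a log2 difference of 1.62. The ratio of Ncf4 to Cybb went from 0.719 ± 0.0489 to 1.46 ± 0.0642, a log2 difference of 1.03. Both arms were apart in each ratio, with the exact permutation p at its lower bound of 0.1.

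**Figure D2:**
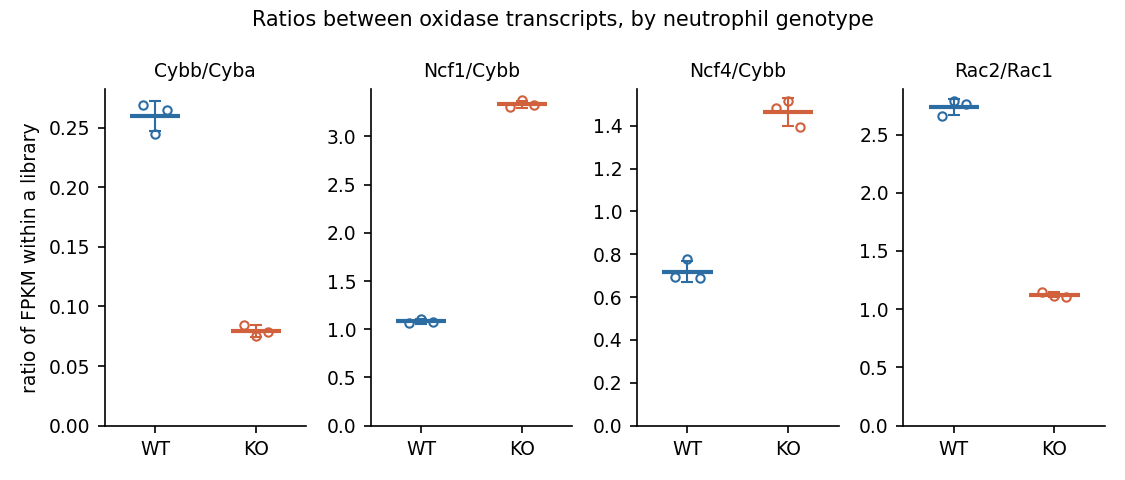
Ratio of FPKM within a library (vertical axes, no unit, each starting at 0) for 4 pairs of oxidase transcripts, by neutrophil genotype. Points are the 3 libraries of an arm, thick lines means and thin bars SD. Cybb against Cyba and Rac2 against Rac1 are lower in every KO library, and Ncf1 and Ncf4 against Cybb are higher.

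The Racs moved in opposite directions. Rac2, the GTPase largely limited to blood cells and the main Rac of the neutrophil oxidase, lies on chromosome 15 from 78559167 to 78572783, minus strand. It measured 103, 106 and 107 FPKM in the WT libraries and 51.5, 52.8 and 51.5 FPKM in the KO libraries. The KO libraries thus lay near the middle between 0 and the WT level and nearly coincided with each other. The means were 105 ± 2.25 and 51.9 ± 0.755 (SD, n = 3 each), and the log2 change was −1.01 (standard error 0.0247, interval −1.07 to −0.95, limma adjusted p = 1.11e-06).

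Rac1, the widely expressed Rac that also drives the actin cytoskeleton, lies on chromosome 5 from 143503634 to 143528036, minus strand. It measured 38.6, 38.1 and 38.7 FPKM in the WT libraries and 44.8, 47.4 and 46.5 FPKM in the KO libraries. Each KO library exceeded each WT library. The means were 38.5 ± 0.343 and 46.3 ± 1.32 (SD, n = 3 each), and the log2 change was 0.26 (standard error 0.0282, interval 0.19 to 0.33, limma adjusted p = 0.000644). Exons of Rac1 share 2309 bases with Daglb on the opposite strand, which averaged 2.27 FPKM. The ratio of Rac2 to Rac1 went from 2.74 ± 0.0684 to 1.12 ± 0.0219, a log2 difference of −1.29 (exact permutation p = 0.1). Cybb, Cyba, Ncf4 and Rac2 share no exonic base with another annotated gene.

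**Figure D3:**
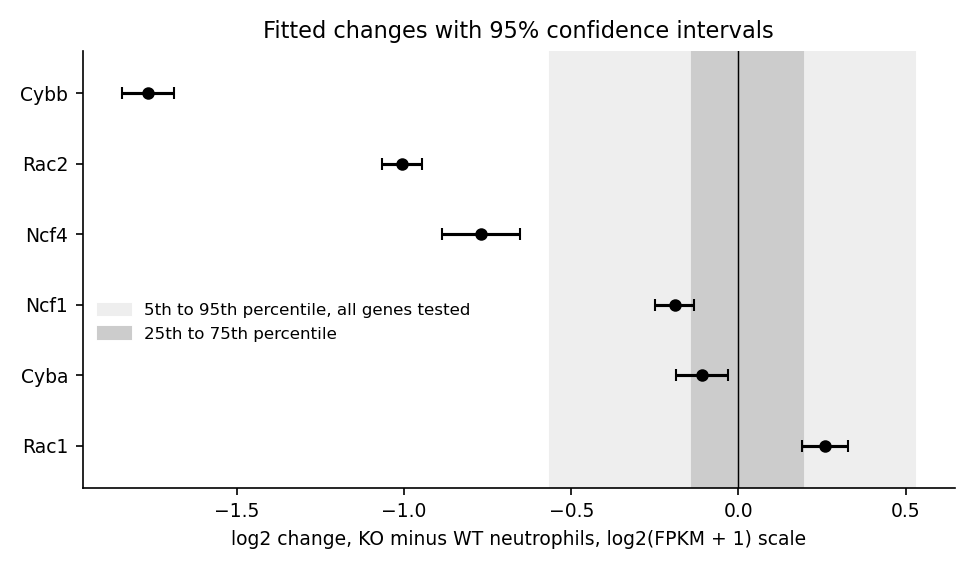
Log2 change, KO minus WT neutrophils, on the log2(FPKM + 1) scale (horizontal axis) for the 6 oxidase genes, with 95% confidence intervals as bars. Dark and light grey bands span the 25th to 75th (−0.14 to 0.19) and the 5th to 95th percentile (−0.56 to 0.53) of all genes tested. Cybb, Rac2 and Ncf4 lie outside the light band and the others inside it.

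In order of mean FPKM, the WT arm ran Cyba, Rac2, Ncf1, Cybb, Ncf4 and Rac1, and no neighbours in that order overlapped between libraries. In the KO arm the order was Cyba, Ncf1, Rac2, Rac1, Ncf4 and Cybb, again without overlap between neighbours. Cybb therefore went from rank 4 to rank 6 of the 6 transcripts. FPKM is divided by transcript length, so these levels can be set side by side, though they rest on the transcript model the authors used, which is not given in the sources used here.

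Over the 6 libraries, log2 values of Cybb and Rac2 had a Pearson r of 0.998, and those of Ncf4 and Rac2 one of 0.991. Ncf1 was most like Cybb among the members (r = 0.983) and Cyba most like Rac2 (r = 0.847), while Rac1 had a negative r with every other member, the one nearest 0 being −0.778 with Cyba. The libraries form only 2 groups, so these values describe the step between the arms: 436 genes had an r over 0.99 with Cybb. The genes closest to Cybb were Eif2ak2, which encodes the interferon-induced kinase PKR, and Il1a, the cytokine IL-1 alpha. Those closest to the others were Il7r and Ntng2 for Rac2, Tent5a and Prdm2 for Ncf4, Sla and Def6 for Ncf1, A230072C01Rik and Gm8451 for Cyba, and Gm23201 and Ankrd13b for Rac1.

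The cells were checked against marker lists, since neutrophils also carry this oxidase. Of 16 neutrophil markers, 6 were at 0 in every library, among them Ly6g, S100a9, Mpo and Elane, and 14 stayed under 1 FPKM. Summed, the 16 reached 118 to 122 FPKM in WT and 1.80 to 2.64 in KO libraries. Lcn2 and Mmp9 made up nearly all of the WT sum, and without them the sums were 2.04 to 2.30 and 0.813 to 1.27. Of 15 microglia and macrophage markers, 3 were at 0 in every library (Fcrls, Sall1 and C1qa), and P2ry12, Tmem119, Aif1 and C1qb stayed under 1 FPKM, so several defining microglial transcripts were absent or near 0. The list summed to 652 to 687 FPKM in WT and 779 to 814 in KO libraries, mostly from Cd68, Tyrobp and Adgre1. Its genes moved in both directions. With KO neutrophils Cd68 rose from 372 to 491 FPKM and Tyrobp from 137 to 191 FPKM. Csf1r rose from 15.5 to 19.4 FPKM and Trem2 from 12.0 to 27.96 FPKM. Adgre1 fell from 101 to 39.3 FPKM (log2 −1.34, limma adjusted p = 1.74e-06) and Cx3cr1 from 2.74 to 1.14 FPKM (log2 −0.81). Ptprc and Itgam were tested and not called. Exons of Csf1r share 873 bases with Hmgxb3 on the opposite strand, which averaged 6.30 FPKM. Xist, the X-inactivation RNA, was at 106 to 126 FPKM and 4 Y-linked genes (Ddx3y, Uty, Kdm5d and Eif2s3y) were at 0 in all 6 libraries, although the methods of the study describe its animals as male. Cybb itself is X-linked. All 14 markers of glia, neurons, fibroblasts and lymphocytes were under 1 FPKM. Cd177 was at 0.477, 0.113 and 0.151 FPKM in the WT libraries and at 0.109, 0.0217 and 0.0845 FPKM in the KO libraries, about 1.1 to 21.9 fragments, and since the sequenced cells were Cd177 WT microglia this does not test the neutrophils' genotype. Mitochondrial genes took 11.1 to 11.3% of summed FPKM in WT and 14.3 to 14.6% in KO libraries. The part of these differences in the oxidase results was not tested. In bulk RNA, fewer cells of a type and less RNA per cell cannot be told apart.

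Depth was read from the smallest steps between low values, at 15.6 to 19.2 fragments per library in units of 1000000. Each member then rested on an estimated 128 to 5695 fragments in a library, depending on the transcript length assumed. At the shortest length, the library with the fewest fragments held 128 for Cybb and 2943 for Ncf1, the lowest and highest of the members, which leaves a counting error of 8.85% and 1.84%. That covers counting error only.

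The other genes of the pathway were taken from lists by role, 81 genes in all, of which 65 passed the filter. Of these, 39 were called (60.0%, beside 43.3% of all genes tested), 24 higher and 15 lower with KO neutrophils, with a median log2 change of 0.06.

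Among 9 genes listed as partners of the oxidase, by binding or by function, 4 fell, 1 rose and 4 were not called (55.6% called, beside 43.3% of all genes tested). Msn, which encodes moesin, a link from membrane to actin that can bind p47phox, fell from 144 to 99.8 FPKM (log2 −0.53, limma adjusted p = 6.47e-06). Coro1a, encoding the p40phox-binding actin regulator coronin 1A, fell from 81.8 to 65.6 FPKM (log2 −0.31). Clcn3, a chloride-proton exchanger of endosomes, fell from 12.1 to 9.40 FPKM (log2 −0.33), and Nrros, a negative regulator that speeds loss of gp91phox protein, fell from 13.4 to 10.2 FPKM (log2 −0.37). Pla2g4a, the cytosolic phospholipase A2 whose product arachidonate activates the oxidase, rose from 25.7 to 28.8 FPKM (log2 0.16). Cybc1, the chaperone needed for gp91phox protein, was at 4.61 ± 0.0724 and 4.66 ± 0.193 FPKM (SD, n = 3 each) and was not called.

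Of 10 genes of other NADPH oxidases and their partners, 9 were under the filter, with Nox1, Noxa1, Duox1, Duox2 and Duoxa2 at 0 in every library. Nox3, better known from the inner ear, was at 5.89, 5.20 and 4.99 FPKM in the WT libraries and at 2.57, 1.93 and 2.16 FPKM in the KO libraries. It fell in all KO libraries, by 0.99 on the log2 scale (limma adjusted p = 0.00034).

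Exchange factors load Rac with GTP. Of 11 tested, 3 fell, 2 rose and 6 were not called, so that 45.5% were called beside 43.3% of all genes tested. Vav1, the exchange factor of blood cells that is switched on by Syk, showed the largest change of the list and fell from 65.8 ± 1.37 to 34.7 ± 1.67 FPKM (log2 −0.91, limma adjusted p = 1.07e-05). Its relative Vav2 fell from 5.28 to 4.16 FPKM and Arhgef6 from 30.2 to 26.9 FPKM, while Dock1 rose from 5.78 to 8.54 FPKM (log2 0.49) and Dock2 from 24.8 to 27.1 FPKM. Of 7 tested genes that hold Rac in check, 3 rose, 1 fell and 3 were not called (57.1% called beside 43.3%). The GDP-dissociation inhibitors Arhgdib and Arhgdia rose from 106 to 133 FPKM (log2 0.32) and from 164 to 188 FPKM (log2 0.19), and the GTPase-activating gene Racgap1 from 16.5 to 19.9 FPKM (log2 0.26). Another of that kind, Chn2, fell from 5.44 to 3.67 FPKM (log2 −0.46).

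Kinases that phosphorylate the cytosolic subunits or act before them moved in both directions, with 5 higher, 2 lower and 5 not called of 12 (58.3% called, beside 43.3% of all genes tested). Syk, which couples Fc and integrin receptors to the burst, fell from 21.3 to 14.1 FPKM (log2 −0.57, limma adjusted p = 8.04e-05), and Pak2 from 42.3 to 37.3 FPKM. Prkcd, a protein kinase C isoform that phosphorylates p47phox, rose from 13.6 to 19.3 FPKM (log2 0.48). Akt1 rose from 51.0 to 66.4 FPKM (log2 0.37) and Pik3c3, which makes the lipid that p40phox binds, from 9.77 to 13.1 FPKM (log2 0.39), and the remaining genes that rose were Btk and Prkca. Mapk14, encoding p38 alpha, was not called: its KO libraries were uneven, at 19.3, 7.96 and 6.44 FPKM.

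Of the factors known to act on the CYBB promoter in myeloid cells, 6 were tested, and 2 rose while none fell, a share of 33.3% called beside 43.3% of all genes tested. Spi1, which encodes PU.1, rose from 35.3 ± 1.08 to 43.5 ± 2.56 FPKM (log2 0.29, limma adjusted p = 0.00365), and Elf1 from 9.38 to 12.2 FPKM (log2 0.34). Irf1 was at 4.13 ± 0.418 and 4.80 ± 0.0866 FPKM (limma adjusted p = 0.0786) and Cebpe at 10.6 ± 0.558 and 11.3 ± 0.775 FPKM (limma adjusted p = 0.275). Irf8 varied within both arms, from 4.18 to 8.46 FPKM in WT and from 3.91 to 7.65 in KO libraries.

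Of 8 tested enzymes that remove superoxide and peroxide, 5 rose, 2 fell and 1 was not called, beside 24.5% higher and 18.8% lower over all genes tested. Gpx1, the main cytosolic glutathione peroxidase, rose from 170 to 261 FPKM (log2 0.61, limma adjusted p = 6.20e-06) and Prdx2 from 27.7 to 38.6 FPKM (log2 0.46), and Cat, Gpx4 and Prdx1 were the others that rose. Sod2, the superoxide dismutase of mitochondria and an inflammation-induced gene, fell from 16.7 to 7.42 FPKM (log2 −1.07), and Prdx5 from 41.0 to 24.8 FPKM (log2 −0.70). Exons of Prdx5 and Prdx2 overlap expressed genes on the opposite strand, Trmt112 and Junb, at averages of 29.1 and 49.2 FPKM. Coro1a, Elf1 and G6pdx share 26, 327 and 418 exonic bases with opposite-strand genes at averages of 5.19, 5.28 and 4.76 FPKM.

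The oxidase consumes NADPH. Of 11 genes listed for NADPH supply, not all of which make NADPH themselves, 6 rose, 2 fell and 3 were not called (72.7% called, beside 43.3% of all genes tested). Idh1, the cytosolic NADP-dependent isocitrate dehydrogenase, rose from 15.95 ± 0.523 to 40.2 ± 0.738 FPKM (log2 1.28, limma adjusted p = 1.39e-06). The pentose phosphate genes G6pdx and Pgd rose from 66.9 to 85.4 FPKM (log2 0.35) and from 54.0 to 74.1 FPKM (log2 0.45), and Tkt, Taldo1 and Idh2 were the others that rose. Nadk, which makes NADP itself, fell from 74.5 to 45.7 FPKM (log2 −0.69), and Me1 from 44.1 to 35.9 FPKM.

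**Figure D4:**
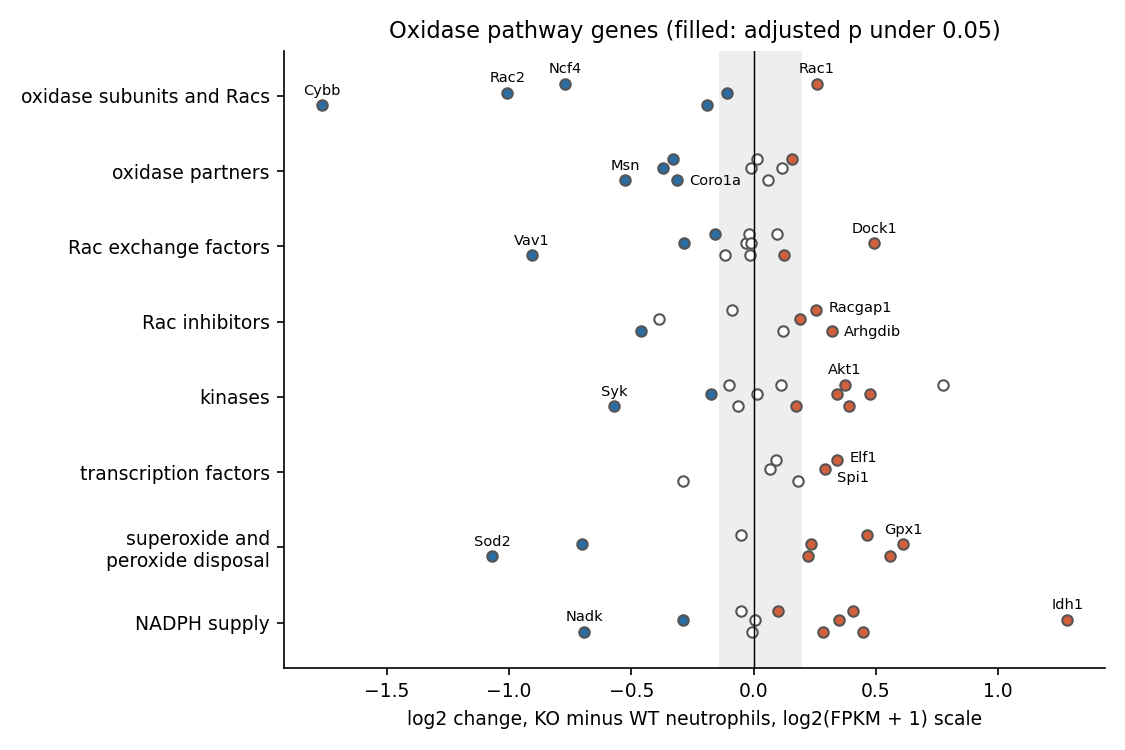
Log2 change, KO minus WT neutrophils, on the log2(FPKM + 1) scale (horizontal axis) for the oxidase genes and 7 lists of pathway genes (rows). Each point is a gene, filled blue (lower) or red (higher) where the limma adjusted p was under 0.05 and open otherwise, and the grey band holds the 25th to 75th percentile of all genes tested (−0.14 to 0.19). Cybb has the most negative change shown, and Idh1 the most positive.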

How the data were processed

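The expression table was 1 deposited file of FPKM values with 1 column for each of the 6 libraries, and no other column of sample values was present. Per the labels' processing notes, the authors used fastp 0.17.1, HISAT2 2.1.0, DESeq2 1.18.1 and R 3.4.3 (their role or order is not stated), and the program that computed the FPKM values, the genome build, the annotation and the strand setting are not given in the sources used here. The labels and the study's methods name different library kits and sequencers. Groups came from the sample titles.

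Identifiers were matched to GENCODE M21 (GRCm38), where 55154 of 55335 were found (99.67%) and 181 were not. Whole fragments could not be recovered (34.6 to 36.3% of low values fell within 0.05 of a whole number), so no count test was run. limma 3.58.1 (in R 4.3.3, functions lmFit and eBayes, trend on) was fitted to log2(FPKM + 1) of the 11395 genes that averaged 1 FPKM or more, KO minus WT, without covariates. P-values were adjusted by Benjamini-Hochberg over all 11395, with a call at an adjusted p under 0.05. Changes on this scale understate those of low genes. Ratios and single genes had exact two-sided permutation tests. The fit was tested on simulated data.

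Named genes were the members, Cd177, the 4 genes with the smallest p in each list, and for each member the 2 genes of most similar pattern. Nrros, Cybc1, Dock2, Pak2, Btk, Prkca, Mapk14, Irf8, Cat, Gpx4, Prdx1, Tkt, Taldo1, Idh2, Me1, Cd68, Tyrobp, Csf1r, Trem2, Adgre1, Cx3cr1, Ptprc, Itgam, Lcn2 and Mmp9 were added after their values were seen. So were the marker, sex-linked and other oxidase genes named for being at or near 0 (Xist for its level). The members and lists were chosen with earlier results of these data known, so no count over a list is independent support for a pattern.

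Some genes of the lists are not reported here and were left out of the list counts. Alternatives were a pseudocount of 0.1, no filter or a filter of 5 FPKM, 4 other scalings, 2 other variance models, a replicate block, and leaving out each library in turn.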

Additional observations from a re-analysis of the deposited data

How the results depend on the processing

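Cybb, Ncf1, Ncf4, Rac1 and Rac2 stayed called in the same direction in all 16 alternative fits. The log2 change ranged from −1.81 to −1.74 for Cybb, −1.06 to −0.98 for Rac2, −0.82 to −0.73 for Ncf4, −0.24 to −0.18 for Ncf1 and 0.21 to 0.28 for Rac1. Cyba kept its direction but not its call: with no filter (log2 −0.11, limma adjusted p = 0.0885) and with no variance trend (log2 −0.11, limma adjusted p = 0.0828), and with quantile normalization (log2 −0.082, limma adjusted p = 0.0744), it was not called, and leaving out 1 library at a time gave −0.13 to −0.082, with the call kept only without the first WT library. The cause was not tested. Under a filter of 5 FPKM no gene of the other NADPH oxidases remained to be called, since Nox3 fell under it. No member, ratio or gene among the 4 with the smallest p of each list changed direction in any alternative that was run. The marker genes, the sex-linked genes and the genes of similar pattern were not followed in the alternatives. The other named genes of the pathway lists were followed only through the counts of their lists. Those counts lay between 35 and 39 for all pathway lists together (39 in the fit reported), 6 and 7 for the kinases (7), where all fits with 1 library left out gave 6, 4 and 5 for the exchange factors (5), 3 and 5 for the genes that hold Rac in check (4), 5 and 6 for the oxidase partners (5), 6 and 7 for superoxide and peroxide disposal (7) and 7 and 8 for NADPH supply (8), and stayed at 2 for the transcription factors. On the TPM scale the balance of calls over all genes changed direction, from 56.57% to 45.08% higher with KO neutrophils, and the median log2 change went from 0.02 to −0.02. Calls over all genes numbered 4930 in the fit reported, 3763 to 4931 under other settings and 4081 to 4229 with 1 library left out. Same-numbered WT and KO libraries showed no shared deviation (r of −0.0751, −0.0524 and −0.00518). With 3 libraries an arm this cannot decide whether the numbers pair the libraries, and the labels do not say. With the replicate block 4212 genes were called, among them all 6 members (Cybb log2 −1.77, limma adjusted p = 6.54e-05), and no call of a member changed. edgeR and DESeq2 were not run, because whole fragments were not recovered. The depth is an estimate, and with 3 libraries an arm the exact permutation test cannot go below 0.1.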
